A study of Arabidopsis thaliana with 6 samples.

Results

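XTH18 (AT4G30280) and XTH19 (AT4G30290) are close paralogs that encode enzymes of the plant cell wall, and they are next to each other on chromosome 4 in the gene order of the TAIR10.1 assembly. They were taken as the probe sets whose platform annotation lists XTH18 or XTH19 and no other gene, 1 for each, out of 22746 probe sets tested and 13350 genes that had a probe set of this kind. Leaves came from Arabidopsis thaliana, ecotype Columbia (spelled Colombia in the labels), grown for 5 weeks in soil at 21°C with 10 h light and 14 h dark. The 3 groups were control leaves of unwounded plants, local leaves, which had themselves been clamped with tweezers over the midvein, and systemic leaves, which were unwounded leaves of the wounded plants. On each wounded plant 3 rosette leaves were clamped, and leaves were taken 10 min later. Each group had 2 biological replicates, 1 array each, and each array measured leaves pooled from 3 plants, and the spread between arrays is therefore one between pools and not between plants. All values are log2 RMA values, made by the submitters, on which a difference of 1 is a 2-fold change.

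Xyloglucan endotransglucosylase/hydrolases (XTHs) act on xyloglucan, the hemicellulose that coats and links cellulose microfibrils in the primary wall. They cut a xyloglucan chain and join the new end to another chain, or in some members to water, and thereby loosen, rebuild or strengthen the wall. The Arabidopsis family is large, and it contains TCH4 (XTH22), a classical gene that is switched on by touch. XTH18 and XTH19 are best known from growing roots, and XTH19 is also known from the rejoining of cut inflorescence stems.

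The replicate arrays correlated at r = 0.995, 0.997 and 0.996 across probe sets in control, local and systemic leaves. Photosynthesis transcripts marked the tissue as leaf: RCA and LHCB4.1 lay between 14.20 and 14.61 on the 6 arrays. The root hair expansins EXPA7 and EXPA18 lay between 4.46 and 5.16, not far above the lower quartile of all probe sets (4.41 to 4.48). The other root marker measured, PYK10, stood higher in control leaves, at 6.91 and 7.72, above the medians of those arrays (6.29 and 6.24). It lay at 3.95 and 4.19 in local and at 4.23 and 4.25 in systemic leaves. The table has no detection calls, so a level near the lower quartile could not be told from background. In leaf pools, fewer cells of a type and less RNA per cell cannot be told apart.

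The comparison of local with control leaves asked how the wounded leaf itself responded. XTH18 stood at 4.49 and 4.55 on the control arrays and at 8.72 and 8.79 on the local arrays. Both local arrays were far above both control arrays, and the replicates within each of these groups lay within 0.07 of each other. The transcript rose from a mean of 4.52 ± 0.04 to one of 8.75 ± 0.05 (SD, n = 2 each). In limma's fit this was a rise of 4.23 with an SE of 0.38 (adjusted p = 0.00021), or 18.8-fold with a 95% interval of 10.2 to 34.6. It was the difference ranked 56 from the top among all 22746 probe sets. The SE is wide beside the replicate spread because the 3 groups share one estimate, which includes the spread of the systemic arrays. With the 4 control and local arrays alone the SE was 0.10. The control level was within 0.08 of the lower quartile of its arrays, where RMA compresses differences.

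XTH19 stood at 4.87 and 5.16 on the control arrays and at 4.95 and 5.32 on the local arrays. The groups overlapped, with a local array on either side of the higher control array. The control mean was 5.02 ± 0.20 and the local mean 5.13 ± 0.26 (SD, n = 2 each). In limma's fit the 2 differed by 0.12 with an SE of 0.31 (adjusted p = 0.86). The 95% interval ran from -0.61 to 0.84, or 0.656-fold to 1.79-fold, so that a change of XTH19 as large as that of XTH18, whose interval began at 3.35, lay outside it. Of the 2 genes 1 was called higher, where 9.92% of all probe sets tested were (23.6% in either direction). XTH18 was also the one whose local arrays lay clear above control, as did those of 23.5% of all probe sets.

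**Figure D1:**
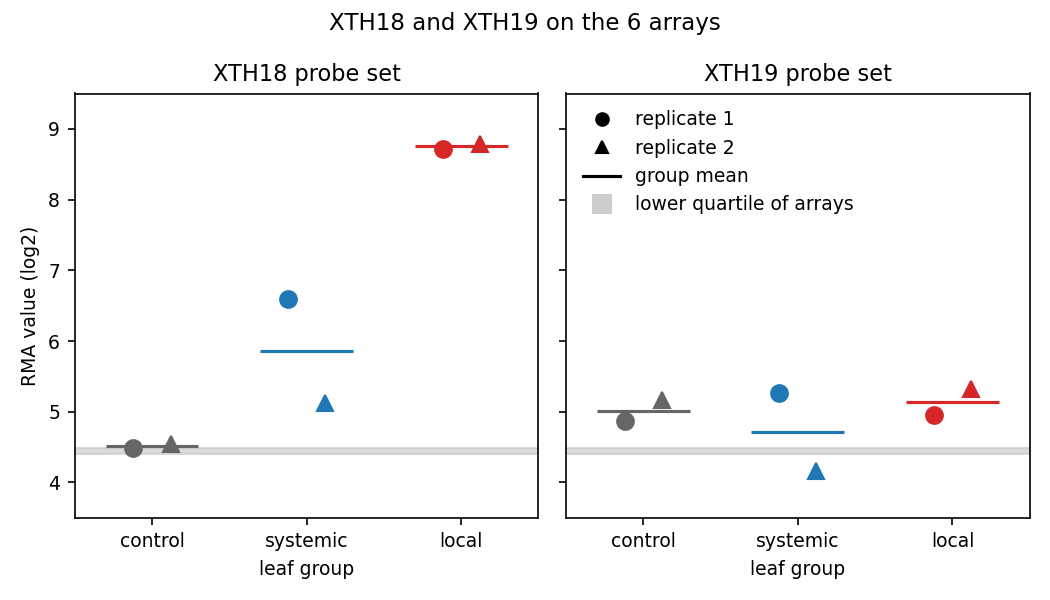
Log2 RMA values (y axis) of the XTH18 probe set (left) and the XTH19 probe set (right) in control, systemic and local leaves (x axis), with a circle for replicate 1, a triangle for replicate 2, a line for the group mean and a grey band for the lower quartiles of the arrays. XTH18 reaches 8.72 and 8.79 in local leaves while XTH19 stays between 4.17 and 5.32 on all arrays, and both probe sets are lower on systemic replicate 2 than on systemic replicate 1.

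The comparison of systemic with control leaves asked whether a leaf that was not itself wounded responded, against the same control arrays as the local comparison. XTH18 stood at 6.59 on systemic replicate 1 and at 5.13 on systemic replicate 2. Both were above both control arrays, by 2.05 and 0.58 over the higher of them, and both were below the lower local array, by 2.13 and 3.59. Set against the control mean, which lies too near the lower quartile to be told from background, the arrays were higher by 2.07 and 0.61 on the log2 scale. The group stood at 5.86 ± 1.04 (SD, n = 2), which put it 1.34 ± 0.38 (SE) above control, or 2.53-fold with a 95% interval of 1.38 to 4.66. The unadjusted p was 0.0080, and adjusted over all probe sets the difference was not past the threshold of 0.05 (adjusted p = 0.075 by limma).

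That result rests on the disagreement of the systemic arrays. Without systemic replicate 1 the log2 difference of XTH18 was 0.61 ± 0.12 (adjusted p = 0.044 by limma), and without systemic replicate 2 it was 2.07 ± 0.12 (adjusted p = 0.00023). Either array alone passed because the single array left adds no spread to the shared estimate, and it is then assumed to vary like the other groups. Both values are above 0, and they differ from each other by more than their SE.

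XTH19 stood at 5.27 on systemic replicate 1 and at 4.17 on systemic replicate 2, the first above both control arrays and the second below both. The level on replicate 2 was 0.24 below the lower quartile of its array, the only one of its 6 values under that mark. At 4.72 ± 0.78 (SD, n = 2), the group differed from control by -0.30 ± 0.31 in limma's fit (SE, adjusted p = 0.66), with a 95% interval of -1.03 to 0.42. Without systemic replicate 1 the difference was -0.85 (adjusted p = 0.070), and without systemic replicate 2 it was 0.25 (adjusted p = 0.59), so its direction was set by which array was kept. By limma 0 of the 2 genes were called in systemic leaves, with XTH18 past an unadjusted p of 0.05, where 8.40% of all probe sets were called in either direction and 4.73% were called higher. The systemic arrays of XTH18 lay clear above control, as did those of 22.8% of all probe sets.

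Local and systemic leaves were also compared with each other. XTH18 was higher in local leaves by 2.89 ± 0.38 (SE, adjusted p = 0.0043 by limma), or 7.42-fold with a 95% interval of 4.03 to 13.7, and the groups did not overlap. Without systemic replicate 2 the difference was 2.16 and without systemic replicate 1 it was 3.62, and both passed. XTH19 differed by 0.42 ± 0.31 (adjusted p = 0.51) with a 95% interval of -0.31 to 1.15. Its direction again followed the systemic array kept: 0.97 without systemic replicate 1, past the threshold (adjusted p = 0.038), and -0.13 without systemic replicate 2 (adjusted p = 0.85). Of the 2 genes 1 was called higher in local leaves, where 4.77% of all probe sets were (9.70% in either direction), and local arrays lay clear above systemic arrays in 22.3%.

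The gap between the systemic arrays was large for both genes and ran in the same direction. Replicate 1 exceeded replicate 2 by 1.46 in XTH18 (2.76-fold) and by 1.1 in XTH19 (2.14-fold), against a median absolute gap of 0.11 over all probe sets. Only 20 of 22746 probe sets, XTH18 among them, had a systemic gap at least as wide as that of XTH18 in either direction, and 55 at least as wide as that of XTH19. In control leaves the gaps of XTH18 and XTH19 were -0.06 and -0.28, and in local leaves -0.07 and -0.37, with replicate 2 the higher array each time. XTH18 replicates were thus closer than the median probe set in control and local leaves (0.12 and 0.11), and far apart in systemic leaves. For XTH19, 3257 of 22746 probe sets had a gap at least as wide in control and 1143 in local leaves.

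Strongly wound-induced genes as a group were also higher on systemic replicate 1. Among the other 127 probe sets with a called local rise of 3 or more on the log2 scale, 121 were higher on systemic replicate 1, with a median gap of 0.81 against -0.01 over all probe sets. Of these 127, 11 had a gap at least as wide as that of XTH18. XTH19, which was not called in local leaves, had a gap that 33 of the 127 equalled or exceeded. The labels name no batch that separates the systemic arrays, and the part of this array difference in the gaps of XTH18 and XTH19 was not tested.

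**Figure D2:**
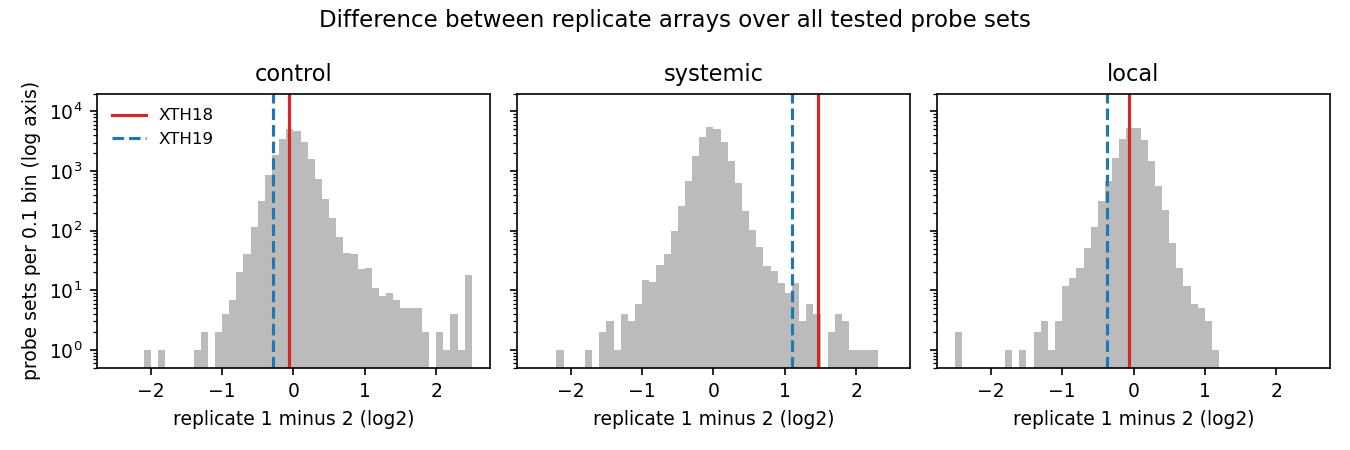
Number of probe sets (y axis, log scale) by the difference of replicate 1 minus replicate 2 (x axis, log2, bins of 0.1, with values beyond 2.5 put in the end bins) in control, systemic and local leaves, with XTH18 as a solid and XTH19 as a dashed line. XTH18 lies near 0 in control and local leaves, XTH19 lies to the left at -0.28 and -0.37, and both lie in the far right tail, at 1.46 and 1.1, in systemic leaves.

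Since different probe sets bind with different strength, the levels of the paralogs were not set against each other, but their changes can be compared through the difference between the probe sets on each array. XTH18 minus XTH19 was -0.38 and -0.61 on the control arrays, 1.33 and 0.96 on the systemic arrays and 3.77 and 3.47 on the local arrays. No 2 groups overlapped, and the systemic arrays, which were 1.46 apart for XTH18 alone, were 0.36 apart in this difference. The group values were -0.50 ± 0.16 in control, 1.15 ± 0.26 in systemic and 3.62 ± 0.21 in local leaves (SD, n = 2 each).

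On these values XTH18 changed by 4.12 more than XTH19 from control to local leaves, and by 1.64 more from control to systemic leaves. Between systemic and local leaves the changes differed by 2.47. In the exact permutation test each of these 3 comparisons gave p = 0.333 (two-sided), which is the smallest value that 2 arrays against 2 allow. Leaving out any 1 array gave 3.97 to 4.27 for local against control, 1.46 to 1.83 for systemic against control and 2.29 to 2.66 for local against systemic leaves. These values rest on levels near background, since XTH19 on systemic replicate 2 was 0.24 below the lower quartile and XTH18 in control leaves was within 0.08 of it, so neither the sizes for comparisons with control or systemic leaves nor the closeness of the systemic arrays is firm.

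**Figure D3:**
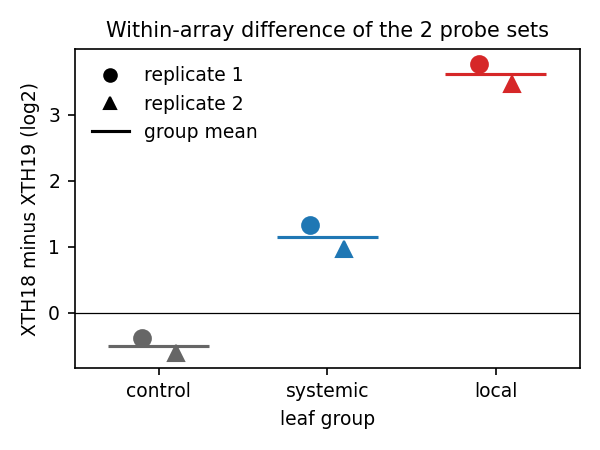
Log2 value of XTH18 minus that of XTH19 on the same array (y axis) in control, systemic and local leaves (x axis), with a circle for replicate 1, a triangle for replicate 2 and a line for the group mean. The groups do not overlap, at -0.50 in control, 1.15 in systemic and 3.62 in local leaves.

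Both probe sets have names without the suffix by which Affymetrix marks sets whose probes match several transcripts. The XTH19 values on the local arrays, 4.95 and 5.32, overlapped those in control leaves on the same arrays where XTH18 was 18.8-fold above control. Binding of transcripts of XTH19 or of other XTH genes by the XTH18 probe set was not tested. The gene on the other side of XTH18 in the gene order is XTH24, which had no probe set with a single listed gene and was not analysed here.

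A list of 48 XTH symbols and older names found 8 further family members with a probe set that names no other gene. No such probe set was found for the rest of the family, TCH4 (XTH22) and XTH24 among them. The counts that follow cover these 8 and not the whole family. In local leaves 4 of the 8 were called higher and 0 lower by limma, where 9.92% and 13.7% of all probe sets were, and their median difference was 0.24 against -0.04 over all probe sets. The widest was XTH33, which stood at 6.08 and 5.97 in control and at 8.57 and 7.54 in local leaves. Both local arrays were above control but 1.02 apart, and the difference was 2.03 ± 0.29 (SE, adjusted p = 0.0020), against 4.23 for XTH18. EXGT-A3 (XTH27), which is known for a role in leaf vein development, rose by 0.73 ± 0.12 (adjusted p = 0.0038), from 11.58 and 11.28 to 12.18 and 12.15. XTH32, of the branch of the family thought to hydrolyse xyloglucan, rose by 0.69 ± 0.10 (adjusted p = 0.0020).

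XTH20, which is known with XTH19 from the rejoining of cut stems, rose by 0.38 ± 0.11 (adjusted p = 0.039) from 4.07 ± 0.05, a level below the lower quartile. Its call was lost when any 1 array other than local replicate 2 was left out (adjusted p = 0.055 to 0.24) and with the 4 control and local arrays alone (adjusted p = 0.055). XTH16 differed by 0.09 ± 0.14, and XTH26, XTH29 and XTH21 differed by 0.08, -0.12 and -0.24, without passing. XTH21 and XTH26 are best known from roots and root hairs, and these 3 lay between 3.77 and 4.49 on every array, close to or under the lower quartile.

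In systemic leaves 2 of the 8 were called higher and 0 lower, where 4.73% and 3.67% of all probe sets were, with a median of 0.17 against -0.02. XTH32 rose by 0.76 ± 0.10 (adjusted p = 0.0038), from 9.72 and 9.90 in control to 10.56 and 10.57 in systemic leaves, with systemic arrays that hardly differed. XTH16 rose by 0.79 ± 0.14 (adjusted p = 0.013), from 8.45 and 8.25 to 8.95 and 9.32, a call lost when control replicate 2 (adjusted p = 0.060) or systemic replicate 2 (adjusted p = 0.058) was left out. XTH33 differed by 0.56 ± 0.29 (adjusted p = 0.32), XTH20 by 0.24 ± 0.11, EXGT-A3 by 0.11 ± 0.12 and XTH26 by 0.06 ± 0.11, none past the threshold, and neither were XTH29 and XTH21 at -0.18 and -0.24. The gap between the systemic arrays, replicate 1 minus replicate 2, ran from -0.36 in XTH16 to 0.38 in XTH33 among the 8. It was above 0 in 4 of them, and the gaps of XTH18 and XTH19 were wider than those of all 8. Of the 8, however, XTH20, XTH21, XTH26 and XTH29 lay close to or under the lower quartile, where RMA compresses differences.

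Between local and systemic leaves, XTH33 was higher in local leaves by 1.47 ± 0.29 (adjusted p = 0.020) and EXGT-A3 by 0.62 ± 0.12 (adjusted p = 0.018), while XTH16 was lower there by a log2 difference of -0.69 ± 0.14 (adjusted p = 0.021). Each call depended on single arrays. That of XTH33 was lost without systemic replicate 2 (adjusted p = 0.13), that of EXGT-A3 without any 1 of the 4 local and systemic arrays (adjusted p = 0.055 to 0.13), and that of XTH16 when local replicate 1 (adjusted p = 0.15), local replicate 2 (0.058) or systemic replicate 2 (0.11) was left out. XTH18 kept its call in this comparison under every array left out.

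**Figure D4:**
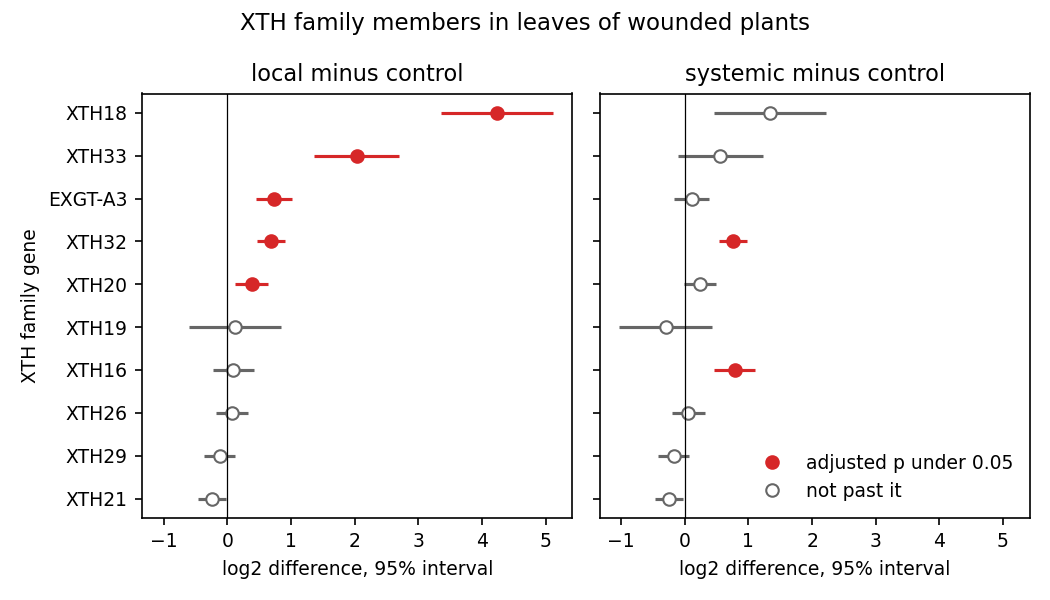
Log2 difference from control leaves (x axis) of 10 XTH family genes (y axis) in local (left) and systemic leaves (right), with 95% intervals from limma and filled red points for an adjusted p under 0.05. XTH18 lies farthest to the right in both panels, at 4.23 and 1.34, while its interval and that of XTH19 are the widest.

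Other genes that act on xyloglucan or on the wall beside it were read from lists of symbols. In the list of xyloglucan synthesis and trimming 5 genes were measured, all of the CSLC family, whose enzymes make the glucan backbone. CSLC4 (CSLC04 in the gene table) rose in local leaves by 0.92 ± 0.17 (adjusted p = 0.0067 by limma), as 1 of 5, with a list median of 0.01. Over all probe sets 9.92% were called higher there. It also rose in systemic leaves by 0.74 ± 0.17 (adjusted p = 0.037, list median 0.31), where 4.73% of all probe sets were called higher, a call lost without any 1 array other than systemic replicate 2 (adjusted p = 0.059 to 0.15). Of 18 expansin and expansin-like genes, 3 rose and 3 fell in local leaves. Over all probe sets 9.92% were called higher and 13.7% lower, so that neither count stood far from that share. The 3 that rose were the expansin-like EXLA1, EXLA2 and EXLA3, and EXPA8, EXPA15 and EXPB3 fell. The differences of the 18 had a median of -0.06. Among those called they ran from EXPA8, which fell by 2.32 ± 0.27, to EXLA1, which rose by 2.40 ± 0.18. In systemic leaves 5 of the 18 genes rose (EXLA1, EXLA2, EXLA3, EXLB1 and EXPB1) and 0 fell by limma, with a median of 0.12. There 4.73% of all probe sets were called higher and 3.67% lower. The 5 ran from EXLA3 at 0.43 ± 0.09 (a call lost without any 1 control or systemic array, adjusted p = 0.073 to 0.16) to EXLA2 at 1.79 ± 0.14.

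Pectin methylesterases modify the other main matrix polysaccharide, and of 85 symbols listed for them and their inhibitors only 3 genes were measured. In local leaves 1 of the 3 was called higher and 1 lower by limma, where 9.92% and 13.7% of all probe sets were. In systemic leaves 1 was called higher, where 4.73% of all probe sets were. ATPMEPCRB rose by 1.02 ± 0.27 in local and by 3.35 ± 0.27 in systemic leaves. It was lower in local than in systemic leaves (difference -2.33 ± 0.27, adjusted p = 0.0025), the reverse of XTH18. Its local call was lost when control replicate 2 (adjusted p = 0.14) or local replicate 2 (0.093) was left out and with robust moderation (adjusted p = 0.068). PME61 fell by 0.62 ± 0.14 in local leaves, a call lost when control replicate 2 (adjusted p = 0.062) or local replicate 1 (0.10) was left out. Of the list of cellulose genes only COB was measured, and of the touch genes none had a probe set with 1 listed gene.

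The profile of XTH18 over the 6 arrays was set beside those of 13348 other genes, each centred on its own control mean. The 5 genes with the smallest root mean square difference from it were AT4G24380 (0.27), AT1G58420 (0.30), PUB23 (0.43), AT3G23170 (0.44) and AT5G35735 (0.49), on the log2 scale. PUB23, a U-box E3 ubiquitin ligase known for restraining immune signalling, stood 4.65 and 4.93 above its control mean in local leaves and 1.40 and 0.76 above it in systemic leaves. AT4G24380 stood 3.85 and 3.93 above in local leaves and 1.89 and 0.99 above in systemic leaves. All 5 were higher on systemic replicate 1 than on replicate 2, by 0.64 to 1.06, less than the 1.46 of XTH18. These genes were picked for their values, so their likeness is a description, and by Pearson correlation over the same arrays 0 of the 5 were again among the closest.

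**Figure D5:**
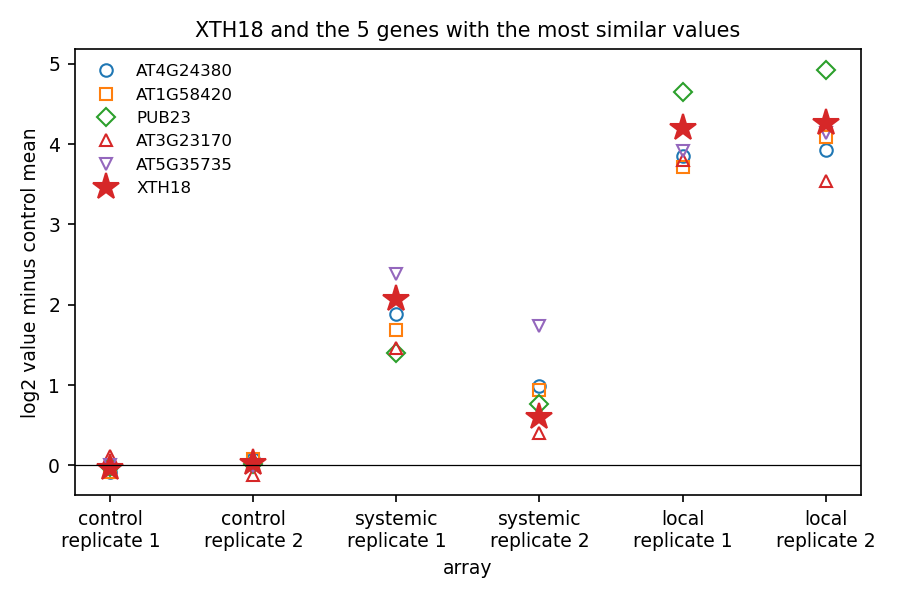
Log2 value minus the control mean of the same gene (y axis) on each of the 6 arrays (x axis) for XTH18 (stars) and the 5 genes with the smallest root mean square difference from it (open symbols). All 6 genes stand highest on the local arrays and higher on systemic replicate 1, where XTH18 is at 2.07, than on systemic replicate 2, where it is at 0.61.

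For XTH19 the 5 closest genes were AT5G22540 (0.21), AT4G14390 (0.22), AT5G28230 (0.23), AT3G55680 (0.23) and AT5G18710 (0.23). None of them was called in any of the 3 comparisons. They were picked for values close to those of XTH19, which was itself not called with all 6 arrays. Their lack of calls follows from that choice and is no test. Of the 5, 2 were again among the closest by Pearson correlation.

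Some markers of other cell types also differed from control in leaves of wounded plants, and their part in the XTH18 rise was not tested. The phloem sucrose transporter gene SWEET11, the 1 vascular marker measured of 7 listed, lay at 10.41 and 10.90 in control, 11.40 and 11.50 in local and 10.85 and 11.07 in systemic leaves. Its local difference was 0.79 ± 0.16 (adjusted p = 0.011 by limma, lost without local replicate 2 with adjusted p = 0.059). Of the 3 root markers measured, PYK10 fell by 3.25 ± 0.23 in local leaves and dropped by 3.08 ± 0.23 in systemic leaves, while EXPA7 and EXPA18 did not pass. EXPA7 differed by 0.19 in local and by 0.28 in systemic leaves (adjusted p = 0.30 and 0.19 by limma), with all arrays of both groups above control, and EXPA18 by -0.11 and -0.07. The summed root marker level was 7.40 to 8.07 in control, 6.15 to 6.18 in local and 6.23 to 6.29 in systemic leaves, a fall carried by PYK10. The dividing cell markers AUR1 and AUR2 fell as well, with differences of -0.89 and -1.01 (SE 0.10 each) in local leaves and of -0.67 and -0.79 in systemic leaves. The single markers of guard cells and trichomes, FMA and TRY, did not pass in either leaf. TRY differed by 0.34 in local and by 0.46 in systemic leaves (adjusted p = 0.13 and 0.099 by limma). All arrays of both groups lay above control for TRY, as in 23.5% and 22.8% of all probe sets, while FMA overlapped control.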

How the data were processed

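The authors deposited 1 log2 value per probe set and array. RMA and Affymetrix Expression Console, without versions, are named for them per the submitters' processing notes. RMA sets the probe intensities of all arrays to one distribution before they are summarised per probe set, so only relative changes are seen. All 6 columns were mapped to samples, and array number limits precision.

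Affymetrix's own 64 control probe sets were dropped, which left 22746 for testing, without a filter. Of these, 13513 list 1 gene, 503 several and 8730 none listed here, and names were updated through Entrez numbers (13436) or loci (48) with the TAIR10.1 gene table (29 kept the platform's name). Sequences were not used here.

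Groups were compared with limma 3.58.1 (R 4.3.3), which fitted group means and one spread over the 6 arrays (degrees of freedom: 3 residual, 4.85 prior). Tests were two-sided, p-values were adjusted over the whole table (Benjamini-Hochberg, threshold 0.05), and the script was tested on simulated data. Paralog changes were compared by exact permutation. The members, lists and rules were chosen with earlier results of these data known. Named genes were the members, all measured XTH genes, the called members with the extreme differences of each list, and the 5 genes most like each member by root mean square difference. Where a gene has several probe sets, the one with the highest mean stood for it.

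Alternatives were median centring, cyclic loess, the replicate number as a block, leaving out probe sets below the 25th percentile or the median of means, trended or robust moderation, only the 4 arrays compared, and each array left out.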

Additional observations from a re-analysis of the deposited data

How the results depend on the processing

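The rise of XTH18 in local leaves was 4.2 to 4.33 under all alternatives, and its excess over systemic leaves 2.16 to 3.62. Both passed wherever each group kept 2 arrays. Leaving out probe sets below the median of means adds no support, since the local arrays raise the mean of XTH18. Its control arrays (4.49 and 4.55) lay under the array medians (6.22 to 6.29). The systemic difference of XTH18 stayed above 0 everywhere and ran from 0.61 to 2.07 with single arrays left out. Under the other 8 alternatives it was 1.34 to 1.38 with adjusted p from 0.055 to 0.22. With single arrays left out, XTH19 ranged from -0.068 to 0.30 for local against control, from -0.85 to 0.25 for systemic against control and from -0.13 to 0.97 for local against systemic leaves; it could not be fitted with probe sets below the median left out, since it is one of them.

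Same-numbered arrays are not said to share a batch, and their deviations correlated at 0.14, 0.02 and 0.20 in the 3 pairs of groups, so the number was not taken as a pairing. With the replicate block XTH18 gave 4.23, 1.34 (adjusted p = 0.055) and 2.89, XTH19 gave 0.12, -0.30 and 0.42, and no call of either changed. The block gave 5702, 2207 and 2546 calls, against 5374, 1911 and 2206, in local against control, systemic against control and local against systemic leaves.

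With single arrays left out, the calls for local against control numbered 2823 to 5040 (1437 to 2147 higher, 1386 to 2893 lower), those for systemic against control 787 to 1581 (537 to 935 higher, 250 to 732 lower) and those for local against systemic leaves 558 to 2329 (358 to 1175 higher, 200 to 1154 lower). Among the 8 other XTH genes, 3 to 4, 1 to 2 and 0 to 3 were called. Cyclic loess moved the split of calls from 2257 higher and 3117 lower to 2806 and 2315 for local against control, and from 1084 and 1122 to 1283 and 836 for local against systemic leaves, while XTH18 moved by less than 0.1. Differences that passed no threshold turned sign for XTH16 (local, -0.0054 to 0.19), XTH26 (local, -0.052 to 0.20), EXGT-A3 (systemic, -0.046 to 0.26) and EXPA18 (local, -0.28 to 0.059; systemic, -0.24 to 0.11). XTH33 in local against systemic leaves was not past the threshold with robust moderation (adjusted p = 0.059), and CSLC4 in systemic leaves with cyclic loess or the 4 arrays alone (adjusted p = 0.051 and 0.066). The cause of these changes was not tested. The low level of XTH19, of XTH18 in control leaves and of XTH20, XTH21, XTH26 and XTH29 limits what could be seen of them.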
